A study of Mus musculus with 2 samples.

Results

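Ribosome biogenesis was followed through 50 named genes, the transcription factor gene Myc and 49 genes of nucleolar proteins that make, modify or assemble the precursors of the ribosome. They were chosen by name from knowledge of the pathway, with earlier results of these data known. All 50 had a probe set of their own among the 18193 genes that could be read singly on the arrays. They had 105 probe sets between them. The series holds 2 arrays (Affymetrix Mouse Genome 430 2.0) of mouse jejunum, which lies between duodenum and ileum. 1 array carried RNA of wild-type mice and 1 carried RNA of mice labelled XBP1 knock-out, each a pool from 3 animals. XBP1 is a transcription factor of the response to unfolded proteins in the endoplasmic reticulum (ER). The labels name no strain, age, sex, deleted exon, promoter or Cre line for either pool, so whether XBP1 was missing from all cells or from one cell type is not stated in the sources used here. The RNA came from scrapings, which hold epithelium together with lymphocytes and other cells of the mucosa.

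A ribosome is made in the nucleolus. RNA polymerase I transcribes the long ribosomal RNA precursor, small nucleolar ribonucleoproteins (snoRNPs) modify its nucleotides, and successive sets of assembly factors cut and fold it into the small and the large subunit. MYC activates many genes of this pathway in dividing cells, and in the small intestine such cells lie in the crypts, whereas the cells of the villi have left the cell cycle.

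Each value is a signal of 1 probe set on 1 array, scaled so that the 75th percentile of all probe sets is equal on both arrays. Signals below a floor of 68.1 units were set to it for the ratio, a gene is read from the probe set brightest on average, and a gene above the floor on 1 array or more is called measured. Ratios are log2 of the knock-out-labelled pool over the wild-type pool, and a ratio with 1 pool at the floor is a bound. With 1 array per genotype no difference has a replicate check, no p-value is given, and precision is limited by the number of arrays. The scatter between probe sets of the same gene had an SD of 0.30 in log2 ratio (3412 genes). It covers only probe sets above 2 times the floor on both arrays. It includes no variation between mice and no error shared by the probe sets of an array. Xbp1 itself read 8143 in wild-type and 6782 in the other pool on its brightest probe set, and its 4 probe sets gave ratios of -0.26 to 0.06. Which part of the gene was deleted is not stated, and probe sets outside that part detect whatever mRNA is left, so Xbp1 checks neither label here, and every direction rests on the labels.

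Most of the 50 genes read higher in the knock-out-labelled pool. All 50 were measured, and for 46 both pools exceeded the floor. The ratio was above 0 for 41 of 50 members (82.0%), where 39.8% of the 12826 measured genes of the arrays had a ratio above 0. The median ratio was 0.41 over the members and -0.11 over all measured genes. At least 2-fold higher were 7 members, Wdr12, Nolc1, Rrp9, Nop14, Gnl3, Gar1 and Nop58, or 14.0% against a background of 2.25%, and 0 were at least 2-fold lower against a background of 5.08%. Wdr12 and Rrp9 were under the floor in the wild-type pool and so were measured only through the pool where they were high. Nolc1 and Nop14 were within 1.5 times the floor in the wild-type pool. Of the 46 members above the floor in both pools, 38 had a ratio above 0 and 5 were at least 2-fold higher, with a median of 0.41. The same shares over the 10297 measured genes above the floor on both arrays were not computed, so these counts have no matching background. At least 1.5-fold higher were 20 members, against 7.84% of all measured genes, and 1 was at least 1.5-fold lower, against 16.3%. The range above the 90th percentile of all measured genes, a ratio of 0.51, contained 21 members, and 33 lay above the 75th percentile of 0.18. Just inside the 2-fold threshold stood Gar1 at 1.04 and Nop58 at 1.01, and just outside it Dkc1 at 0.90 and Nhp2 at 0.85.

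**Figure D1:**
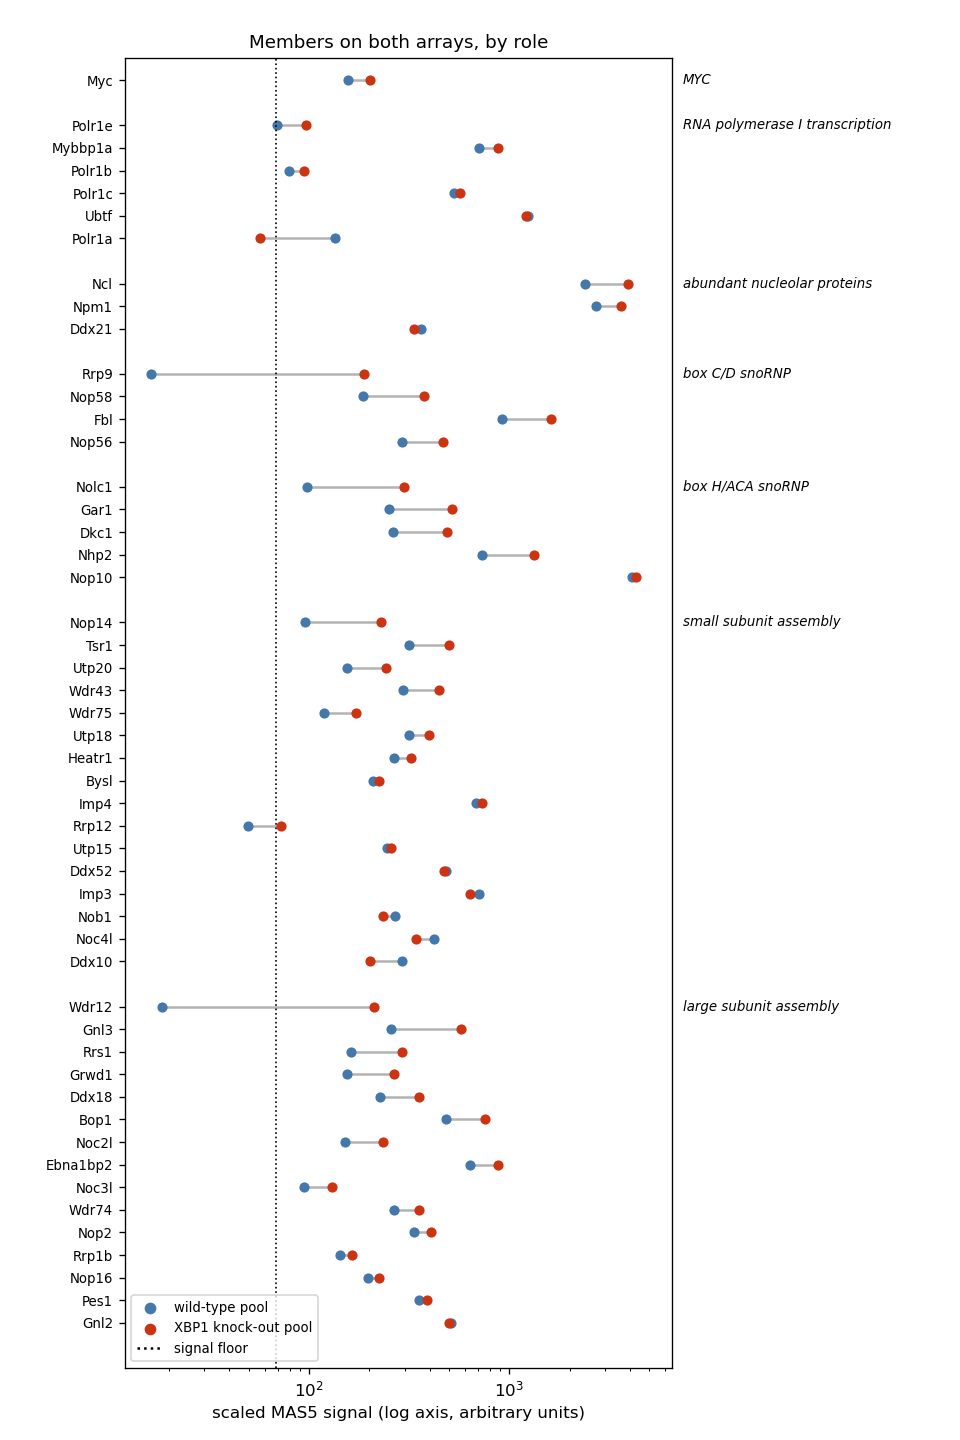
Scaled MAS5 signal (horizontal log axis, arbitrary units) of each of the 50 members in the wild-type pool (blue) and the XBP1 knock-out pool (red), 1 array each, grouped by role, with the signal floor of 68.1 units dotted. The red point lies to the right for 41 members, and the snoRNP genes other than Nop10 show wide gaps.

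The promoters of these genes were examined because most members, though not all, read higher in the knock-out-labelled pool. A further reason was that MYC binds the E-box CACGTG, and that elements through which XBP1 acts include some with an ACGT core. The E-box CACGTG also holds the letters ACGT, so these letters alone do not separate the factors. RefSeq windows of mouse assembly GRCm38.p6, from 250 bases before to 50 bases after a start site, were found for 43 of the 50 members. Bop1, Fbl, Gnl2, Myc, Npm1, Rrp12 and Rrs1 had none. The E-box CACGTG stood in the windows of 9 of 43 members (20.9%), and in those of 11.2% of 10356 measured genes and 8.09% of all 27025 genes in the table. The windows around these E-boxes are shown because they hold the letters that MYC binds. Each is read 5′ to 3′ along the gene, with 12 bases on either side where the window allows and the E-box in capitals.
Imp4, chr1:34439696-34439725, plus strand: acggtcttagacCACGTGacatcccaaatc
Nop2, chr6:125131811-125131840, plus strand: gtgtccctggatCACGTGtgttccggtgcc
Grwd1, chr7:45830740-45830767, minus strand: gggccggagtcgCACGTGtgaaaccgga
Utp20, chr10:88826765-88826789, minus strand: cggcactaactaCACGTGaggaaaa
Pes1, chr11:3963965-3963994, plus strand: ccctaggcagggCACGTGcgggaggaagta
Mybbp1a, chr11:72441355-72441376, plus strand: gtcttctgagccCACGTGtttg
Tsr1, chr11:74898092-74898121, plus strand: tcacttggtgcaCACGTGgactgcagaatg
Utp18, chr11:93885769-93885798, minus strand: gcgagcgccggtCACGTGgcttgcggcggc
Wdr43, chr17:71616220-71616249, plus strand: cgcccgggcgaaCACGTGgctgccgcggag

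Only 3 of these E-boxes lay before the RefSeq start site, in Imp4, Nop2 and Utp18, and 6 lay in the 50 bases after it. All 9 of these members had a ratio above 0, from 0.09 for Imp4 to 0.78 for Grwd1 with a median of 0.34. The 34 members whose windows lack these letters had a median of 0.44 and included all 7 of those at least 2-fold higher. The other motifs were searched on both strands in the same way. The E-box variant CACGCG was in 14 of 43 windows (32.6%) against 18.7% of measured genes, and CCGGAAG, the core bound by ETS factors, in 15 (34.9%) against 18.6%. TGACGT, the core of cyclic AMP response elements, was in 8 (18.6%) against 12.4%. The longer element TGACGTGG, which contains that core and is known as the UPR element of XBP1 and ATF6, was in 1 window, that of Bysl (2.33%), against 1.03% of measured genes. The ER stress element, CCAAT and CCACG with 9 bases between them, was in 0 of 43 windows and in 0.14% of those of measured genes. A match is a description of letters and not a site, and the members' windows were not compared with windows of like base composition.

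The 120 bases before the start site are shown for the members at least 2-fold higher that have a single RefSeq start, with matches to any of these motifs in capitals.
Nolc1, chr19:46075727-46075846, plus strand: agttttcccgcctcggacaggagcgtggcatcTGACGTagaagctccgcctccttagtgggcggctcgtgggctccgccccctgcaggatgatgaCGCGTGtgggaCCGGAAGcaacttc
Nop58, chr1:59684886-59685005, plus strand: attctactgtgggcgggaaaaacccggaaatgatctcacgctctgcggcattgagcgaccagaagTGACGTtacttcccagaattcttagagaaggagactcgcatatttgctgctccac
Gar1, chr3:129831397-129831516, minus strand: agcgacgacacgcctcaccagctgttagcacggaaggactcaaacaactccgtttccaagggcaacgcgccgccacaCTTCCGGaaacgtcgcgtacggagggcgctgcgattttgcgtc
Rrp9, chr9:106477189-106477308, plus strand: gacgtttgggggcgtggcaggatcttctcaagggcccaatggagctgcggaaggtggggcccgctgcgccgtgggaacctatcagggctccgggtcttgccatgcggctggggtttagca
Nop14, chr5:34660149-34660268, minus strand: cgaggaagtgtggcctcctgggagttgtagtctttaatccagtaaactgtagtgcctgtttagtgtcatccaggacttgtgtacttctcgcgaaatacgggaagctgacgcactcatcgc
Gnl3, chr14:31019132-31019251, minus strand: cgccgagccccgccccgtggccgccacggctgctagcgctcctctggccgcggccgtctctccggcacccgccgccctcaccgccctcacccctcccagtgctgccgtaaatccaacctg

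Nolc1 carried 3 matches in this stretch, the TGACGT core, the E-box variant on the minus strand of the gene and the ETS core. Nop58 carried TGACGT and Gar1 the ETS core, while Rrp9, Nop14 and Gnl3 held none of the 6 searched motifs there.

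Myc, the upstream regulator among the members, read 156 for wild-type and 201 for the knock-out-labelled pool on a single probe set, a ratio of 0.36. Both signals were under 3 times the floor. Of the 12 genes of the MYC and MAX network that are not members, all were measured and 3 had a ratio above 0. Their median was -0.20, and 0 passed 2-fold upward and 1 downward. Among all measured genes 39.8% had a ratio above 0, 2.25% passed 2-fold upward and 5.08% downward, and the median was -0.11. The 1 network gene past 2-fold downward was Mycn, a paralog of Myc. It read 193 in wild-type and 15.1 in the other, a ratio of at most -1.50. A second probe set of Mycn read 8.02 and 73.9, a ratio of at least 0.12, so its direction is unsettled. Mxd4, which encodes a partner of MAX that represses MYC targets, read 790.0 and 395, a ratio of -0.998. Its other 3 probe sets gave -0.79, at most -1.14 and at most -0.94. Mxd4 was named after its value was seen. Elsewhere in the network Mxd1 had a ratio of -0.69, Mnt -0.09, Mxi1 0.04 and Mxd3 0.16.

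Genes of RNA polymerase I transcription did not share one direction. Of the 6 members, 4 had a ratio above 0, 0 were at least 1.5-fold higher and 1, Polr1a, was at least 1.5-fold lower, and the median ratio was 0.18. Polr1c, a subunit shared with RNA polymerase III, read 528 and 570.2 on the probe set used, a ratio of 0.11, and 673 and 415 on another, a ratio of -0.70. Ubtf, the factor that opens ribosomal DNA for transcription, read 1245 and 1216, a ratio of -0.03. Mybbp1a, a nucleolar protein that binds the polymerase, read 704 and 875, a ratio of 0.31. Polr1b and Polr1e, a catalytic core subunit and a subunit that aids initiation, were within 1.5 times the floor on both arrays, at 79.0 and 94.2 for Polr1b and 69.4 and 96.2 for Polr1e, with ratios of 0.25 and 0.47.

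The largest subunit gene, Polr1a, had the lowest ratio of the 50 members, at most -0.98, and was the only one at least 1.5-fold lower. It read 134 in wild-type and, below the floor, 56.7 in the other pool. A second Polr1a probe set read 82.4 and 53.5, a ratio of at most -0.27, and the remaining 3 were below the floor on both arrays. Every Polr1a value was under 2 times the floor.

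The abundant nucleolar proteins were read well above the floor. Ncl, which encodes nucleolin and binds the ribosomal RNA precursor, read 2395 in wild-type and 3905 in the knock-out-labelled pool, a ratio of 0.71. Other probe sets of Ncl gave 0.81 and 1.25, whereas one with an _x_at suffix, a mark of possible cross-hybridisation, read 263 and 154, a ratio of -0.77. The same suffix is on the probe set used for Polr1e, at 0.47. It is also on probe sets that gave 0.83 for Rrs1, at least 0.23 for Grwd1, and 0.29 and 0.01 for Noc4l. A probe set of Ebna1bp2, at most -1.55, carries it too. Npm1, the gene of the histone chaperone nucleophosmin, read 2704 and 3609, a ratio of 0.42, and 0.40 on its second probe set. Ddx21, an RNA helicase of ribosomal RNA synthesis, read 362 and 333, a ratio of -0.12 that became 0.20 when the arrays were set to equal medians and 0.21 or 0.66 when labelling or hybridisation spikes were made equal.

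The member genes of the box C/D snoRNP, the particle that methylates ribosomal RNA at its riboses, all read higher in the knock-out-labelled pool. All 4 members were at least 1.5-fold higher, and 2 were at least 2-fold higher, with a median ratio of 0.91. Fbl, the methyltransferase fibrillarin, read 920.4 in wild-type and 1619 in the knock-out-labelled pool, a ratio of 0.81, and its second probe set gave 0.84. Nop56 and Nop58 are the paired scaffold proteins of the particle. Nop56 read 291 and 468, a ratio of 0.68, with 0.99 on its second probe set, and Nop58 read 185 and 373 on its only probe set, a ratio of 1.01. Rrp9, a protein specific to the U3 snoRNP, read 16.3 and 188 on its only probe set, so that the fold is 2.77 or more, the wild-type signal being under the floor.

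Of the 5 member genes of the box H/ACA snoRNP, which converts uridines of ribosomal RNA to pseudouridine, 4 were at least 1.5-fold higher. Dkc1, the pseudouridine synthase dyskerin, read 262 in wild-type and 488 in the knock-out-labelled pool, a ratio of 0.90, and its other probe sets gave 1.31 and 1.09. Gar1 read 250.5 and 516, a ratio of 1.04, and Nhp2 732 and 1322, a ratio of 0.85 with 1.21 on its second probe set. These are core proteins of the particle. The remaining core gene, Nop10, read 4089 and 4274, a ratio of 0.06, and 0.39 on its second probe set. Nolc1, a chaperone of snoRNPs between the nucleolus and the Cajal body, read 97.3 and 298, 3.06-fold higher and with a ratio of 1.62 the highest of the members above the floor on both arrays. Its other probe sets gave ratios of 0.45 and at least 0.76, both short of 2-fold. The group's median was 0.90.

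The genes of small subunit assembly were mixed, with a median ratio of 0.09 over 16 members. The ratio was above 0 for 11 and below 0 for 5, and 4 were at least 1.5-fold higher. Nop14, a scaffold of the early small subunit precursor, read 94.9 and 228 on its only probe set, 2.40-fold higher, and was the only member of this group past 2-fold. Tsr1, a late factor of the small subunit that resembles a translational GTPase, read 314 and 498, a ratio of 0.66, but its second probe set read 207 on both arrays. Utp20, a large scaffold protein, read 154 and 241, a ratio of 0.65.

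Components that bind the precursor first did not share one value. Wdr43 read 295 and 448, a ratio of 0.60 with 0.67 on its second probe set. Its partners of the same early complex gave 0.28 for Heatr1, 0.08 for Utp15 and 0.53 for Wdr75, though a second Wdr75 probe set gave at most -0.56. Imp3 and Imp4, which pair the U3 snoRNA with its target, had ratios of -0.14 and 0.09, and a second Imp4 probe set gave -0.83. The lowest of the group was Ddx10, an RNA helicase, which read 292 and 201, a ratio of -0.54. A second Ddx10 probe set read 121 and 145, a ratio of 0.26, and the first probe set gave 0.24 under hybridisation spike scaling.

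The other 6 genes of the group lay between -0.30 for Noc4l, which binds Nop14, and 0.34 for Utp18. Noc4l was split between its probe sets, the other 3 of which gave 0.01, 0.29 and 0.51. Nob1, the nuclease that makes the final cut of small subunit RNA, had a ratio of -0.20, Bysl one of 0.10 and Rrp12 one of at least 0.08, the last under the floor in the wild-type pool. A second Bysl probe set read 62.3 and 186, a ratio of at least 1.45 that is far from the first.

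The genes of large subunit assembly were mostly higher. Of 15 members, 14 had a ratio above 0, 7 were past 1.5-fold upward and 2 past 2-fold, with a median of 0.47. Gnl3, which encodes the GTPase nucleostemin, read 257 for wild-type and 571 for the knock-out-labelled pool on its single probe set, 2.22-fold higher. Rrs1, which brings in the 5S particle, read 162 and 290.1, a ratio of 0.84 with 0.83 on its second probe set. Grwd1, a WD-repeat protein of the nucleolus, read 154 and 264, a ratio of 0.78, with at least 1.10 and 0.23 on dimmer probe sets.

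Pes1, Bop1 and Wdr12 form 1 complex, and their 3 genes read differently. Wdr12 read 18.4 and 209.8, a fold of 3.08 or more since wild-type was under the floor, while a second probe set read 43.1 and 86.8, a ratio of at least 0.35. Bop1 read 481 and 758, a ratio of 0.66. Pes1 read 352 and 389.8, a ratio of 0.15, with at least 0.77 on a dim second probe set.

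Ddx18, an RNA helicase, read 226 and 356, a ratio of 0.66, with 0.64 and -0.36 on other probe sets. Noc2l read 151 and 234, a ratio of 0.63, and its partner Noc3l had 0.46, with both Noc3l signals under 2 times the floor. Ebna1bp2 had 0.47, although a dimmer probe set with an _x_at suffix read 199 and 46.1, a ratio of at most -1.55. The lowest was Gnl2, a GTPase of large subunit export, at 509.6 and 501, a ratio of -0.03 that was 0.07 for the values as deposited. Nop16, Rrp1b, the methyltransferase gene Nop2 and Wdr74 had ratios of 0.18 to 0.41.

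**Figure D2:**
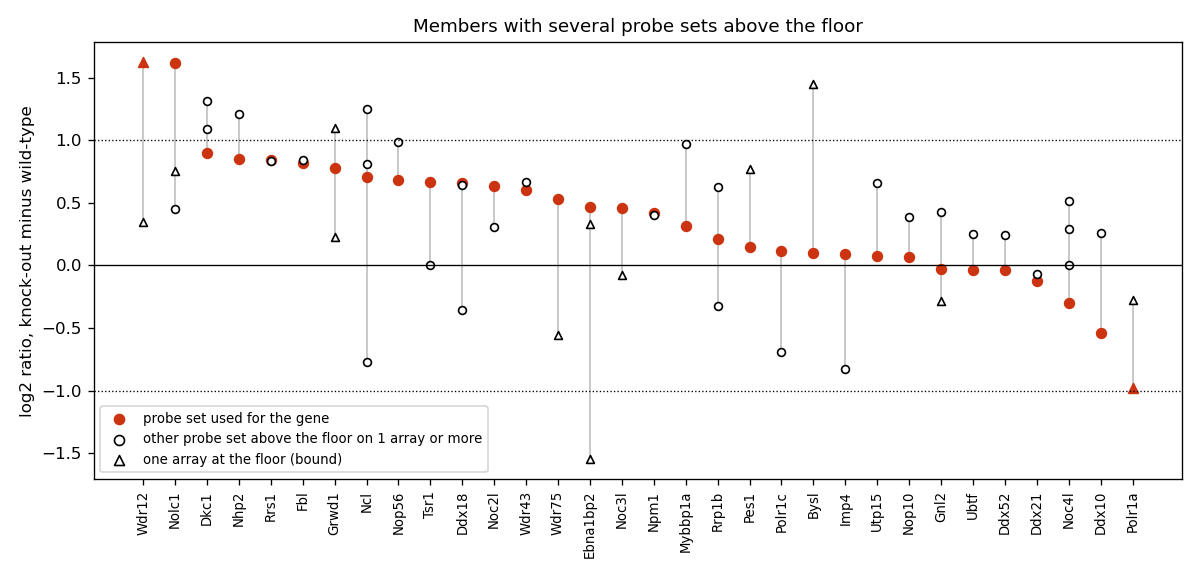
Log2 ratio (vertical axis, knock-out-labelled over wild-type) of every probe set above the floor on 1 array or more, for the members with several such probe sets. Filled red marks the probe set used for the gene, and triangles are bounds. Of 93 probe sets of members above the floor, 73 had a ratio above 0 and 20 below 0. The share over all probe sets of the arrays was not computed.

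The probe sets of 1 gene did not always give 1 direction. Of the 41 members with a ratio above 0, 19 had a further probe set brighter than 2 times the floor, and in 15 of these all such probe sets were above 0 too. Of the 9 members with a ratio below 0, 6 had such a probe set, and only for 1, Ddx21, were all below 0. The other 22 members with a ratio above 0 had no such check, among them 6 of the 7 past 2-fold, Wdr12, Rrp9, Nop14, Nop58, Gar1 and Gnl3. Over the probe sets above the floor on 1 array or more, 13 passed 2-fold upward and 1 downward. No such share was computed over all probe sets of the arrays. Among the upward ones, those of Bysl, Grwd1, Rrp9 and Wdr12 were under the floor in the wild-type pool. The downward one, of Ebna1bp2, was under it in the knock-out-labelled pool.

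Other genes of the pathway were mostly above 0, with few past 2-fold. The list holds 98 further ribosome biogenesis genes, of which 96 were found and 95 measured. Of these, 70 had a ratio above 0 (73.7% beside 39.8% of all measured genes), and the median was 0.22. Past 2-fold were 2 upward, a share near the background of 2.25%, and 1 downward, where the background is 5.08%. Among those that reached 4 times the floor on 1 array, the highest ratios were those of Nol12, a nucleolar RNA-binding protein, at 282 and 543 with 0.95, Taf1d, a subunit of the RNA polymerase I selectivity factor, at 0.80, Utp4 at 0.77, Wdr3 at 0.76, the kinase gene Riok2 at 0.71 and Las1l at 0.71. The lowest were Ddx47 at -0.58, Wdr46 at -0.47, Rrn3, the initiation factor of RNA polymerase I, at -0.45 and Sdad1 at -0.31. Probe sets disagreed for some of these, with 0.12 and 0.19 on other probe sets of Riok2, 0.06 on a second one of Sdad1, and 0.22, 0.45, 0.77, at most -0.22 and at most -0.07 on others of Taf1d. With the median over probe sets Riok2 was at 0.16 and Taf1d at 0.22. The 3 past 2-fold, chosen after their values were seen, were dim, with Ftsj3 at 1.41, Rrp15 at no less than 1.29 and Mdn1 at no more than -1.11. The 11 further RNA polymerase I genes had a median of 0.00, beside 0.21 for 41 of the small and 0.23 for 43 of the large subunit.

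The ribosomal proteins that these factors assemble lay close to all measured genes. Of 46 measured cytosolic ribosomal protein genes, taken by symbol, 17 had a ratio above 0 (37.0% beside 39.8% of all measured genes) and 0 were past 2-fold in either direction, with a median of -0.07 beside -0.11. Of 76 mitochondrial ribosomal protein genes, which are assembled in another organelle, 65 had a ratio above 0 (85.5%), with a median of 0.22, and 2 were at least 2-fold higher, a share near the 2.25% of all measured genes. No test of the difference between these lists and the members was possible with 1 array per genotype.

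**Figure D3:**
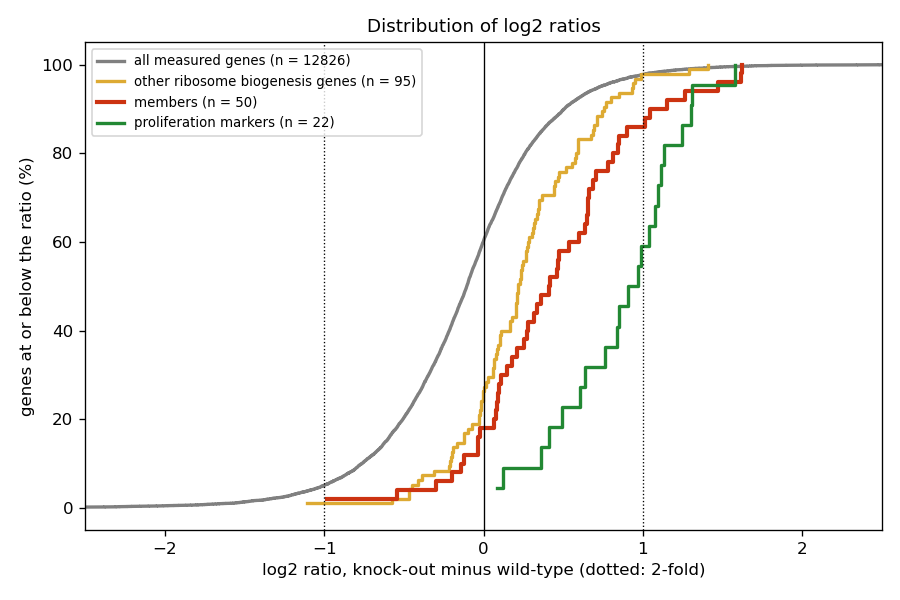
Cumulative share of genes (vertical axis, percent) at or below each log2 ratio (horizontal axis, knock-out-labelled over wild-type, shown within 2.5 of 0) for all 12826 measured genes, 95 other ribosome biogenesis genes, the 50 members and 22 proliferation markers. Over most of its range the members' curve lies to the right of that of all genes and to the left of that of the proliferation markers. The curves cross at the upper end. The highest ratio was 1.62 for the members, 1.58 for the proliferation markers and 4.24 over all measured genes.

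Markers of dividing cells read higher together with the members. Of 24 proliferation markers, 23 were found and 22 measured, all 22 had a ratio above 0 and 9 were at least 2-fold higher, with a median of 0.94 and a summed signal of 11967 for wild-type and 18766 for the other pool. Of all measured genes, 39.8% had a ratio above 0 and 2.25% were at least 2-fold higher. Tyms was below the floor on both arrays. Mki67, the antigen that marks cycling cells, read 531 and 1040.3, a ratio of 0.97. Of 13 crypt stem cell markers found, 10 were measured and 6 had a ratio above 0, their summed signal being 4214 and 8308, of which Olfm4 gave 1359 and 4341. Ascl2, Msi1 and Tnfrsf19 were below the floor on both arrays, and Lgr5, the defining receptor of crypt base stem cells, read 118 in wild-type and, below the floor, 42.9 in the other pool.

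Absorptive enterocyte markers went the other way, with 1 of 18 above 0 and 4 past 2-fold downward, the 1 above 0 having passed 2-fold upward. Their summed signal was 754463 and 475065, so markers of absorptive enterocytes were read on both arrays. Beside the counts in this paragraph, 39.8% of all measured genes had a ratio above 0, 2.25% passed 2-fold upward and 5.08% downward. Paneth cell markers had a ratio above 0 for 2 of 8, with summed signals of 90489 and 25173, goblet cell markers for 2 of 9, with 260281 and 129643, and enteroendocrine markers for 2 of 10, with 24345 and 15952. Tuft cell markers were above 0 for 6 of 7, with 1031 and 2016. Markers of T and B lymphocytes were above 0 for 2 of 11 measured, with 35620.4 and 28177, Cd4 and Cd8b1 being below the floor, and those of macrophages and dendritic cells for 1 of 6, with 6280 and 4221. Smooth muscle and fibroblast markers were above 0 for 7 of 10, with 2663 and 3241, and among erythrocyte markers Hba-a1, the only one measured, read 99.7 and 43.8. In scrapings of pooled tissue, more cells of a type and more RNA per cell cannot be told apart, and the part of these cell types in the members' ratios was not tested.

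The zero of the ratios depended on the scaling. The arrays gave 288 genes past 2-fold upward and 652 downward, so that 30.6% of those past 2-fold were higher, and this share was 41.9% for the values as deposited, 41.4% after quantile normalization, 42.0% after loess and 68.0% with equal medians. In the settings run, the members' median exceeded that of all measured genes, and the proliferation markers' median exceeded that of the members. With the arrays as deposited the members' median was 0.51 beside -0.02 for all measured genes, after loess on mean signal 0.47 beside -0.03, and with equal medians 0.70 beside 0.19. Of the 50 members, 44 lay above the median of all measured genes, and 43 did after loess.

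**Figure D4:**
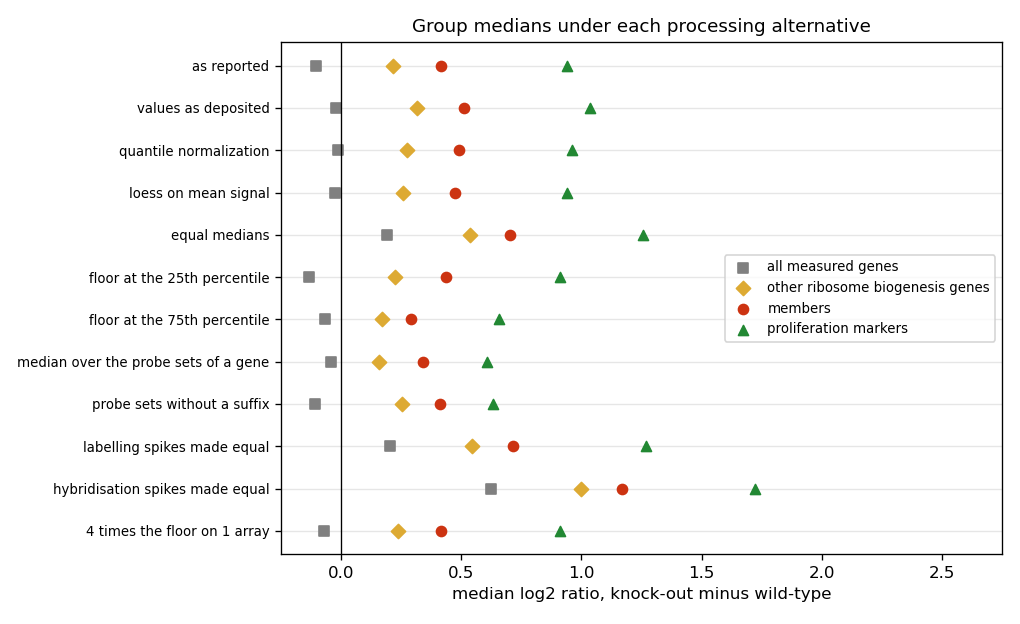
Median log2 ratio (horizontal axis, knock-out-labelled over wild-type) of all measured genes, other ribosome biogenesis genes, the members and the proliferation markers under each processing alternative (vertical axis). The groups stand in the same order in each setting, while the medians of all 4 move to the right with equal medians or equal spikes.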

How the data were processed

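Total RNA of jejunal scrapings, pooled from 3 mice per genotype, was measured on 1 array each. The authors deposited 1 intensity per probe set on a linear scale, MAS5 signals per the submitters' processing notes; their version is not stated in the sources used here. The 2 percent trimmed means of both columns were 500.0, so a common target had been set. Of 45101 probe sets, 64 are controls, 34945 carry 1 gene symbol, 932 several (left out) and 9160 are unnamed here. Symbols were updated by gene number through the RefSeq table of GRCm38.p6, which held 99.4% of the numbers.

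Arrays were scaled to a common 75th percentile (factors 1.03 and 0.97), then floored at the 50th percentile over both arrays, then log2 was taken (Python 3.11.15, numpy 2.4.6, pandas 2.3.3, statsmodels 0.14.6 for loess). Members, lists and roles were chosen with earlier results of these data known. Values are given for Myc, members at least 1.5-fold different and the ends of each role group. Of the other pathway genes that reached 4 times the floor, the 6 highest and 4 lowest are named. Other genes named were chosen after their values were seen. The steps were tested on simulated data. With 1 array per genotype, no test was run. The alternatives were 4 other scalings, 2 other floors, 2 other rules for the probe set and 2 other folds, and 3 more were chosen after seeing the data.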

Additional observations from a re-analysis of the deposited data

How the results depend on the processing

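The number of members at least 2-fold higher, 7 as reported, was 7 for the values as deposited, after quantile normalization, after loess, with the floor at the 25th percentile and with the median over probe sets, and 6 with probe sets without a suffix. It was 14 with equal medians, 0 with the floor at the 75th percentile, which left 28 members measured, 20 at 1.5-fold and 2 at 3-fold. Members at least 2-fold lower numbered 0 except for 1 with the floor at the 25th percentile and 1 at 1.5-fold. In the settings chosen after seeing the data, the members higher were 14 with the labelling spikes made equal, 30 with the hybridisation spikes made equal and 4 among those that reached 4 times the floor, and the members' median was 0.71 and 1.17 with the spikes. Over the other planned settings that median ran from 0.29 to 0.70. For the other ribosome biogenesis genes, 2 higher and 1 lower as reported, the higher were 6 as deposited, 5 after quantile normalization, after loess and with the floor at the 25th percentile, 15 with equal medians, 19 at 1.5-fold, and 0 at 3-fold, with the floor at the 75th percentile and among those that reached 4 times the floor. They were 15 and 47 with the labelling and hybridisation spikes. The lower were 0 after loess, with equal medians, with the floor at the 75th percentile, with the median over probe sets, at 3-fold, with either spike and at 4 times the floor. Their median was 0.53 with equal medians and 0.54 and 0.996 with the spikes. Of the members past 2-fold, Rrp9 and Nop14 stayed past it in the 7 planned settings that gave them a ratio. Wdr12 and Nolc1 were at 0.35 and 0.76 with the median over probe sets. With the floor at the 75th percentile, Gar1, Gnl3 and Nop58 were under it in the wild-type pool. Their ratios there were bounds, of at least 0.61, 0.76 and 0.15. Of 27 named members, 24 kept their sign in all planned settings that gave them a value. Where counts moved, the cause was not tested. No paired analysis was possible because each genotype has 1 array. Signal over background limits the values of Polr1a, Polr1b, Polr1e, Noc3l and Rrp12, which lay under 2 times the floor on both arrays. It also limits the ratios of Wdr12, Rrp9, Nolc1 and Nop14, with wild-type signals of 0.27, 0.24, 1.43 and 1.39 times the floor.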
